A study of Homo sapiens with 4 samples.

Results

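The baseline transcriptome of SK-N-AS cells was read from the untreated arrays of the series, 2 of its 4 arrays, chosen by the word UNTREATED in their titles. SK-N-AS is an established human neuroblastoma line that lacks amplification of the MYCN oncogene. The cells grew in IMDM medium with fetal bovine serum and were given phosphate-buffered saline for 48 h, the control condition for a compound named BG-P400-TAT, which these cultures did not receive. The design text calls the samples biological replicates, and nothing says how their cultures were separated. RNA was hybridised to Affymetrix whole-transcript arrays, and the treated arrays enter none of the values below. With 1 group of 2 arrays no difference between conditions could be tested, so levels, counts and the spread between the arrays are given without p-values.

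Neuroblastoma arises from the sympathoadrenal lineage of the neural crest. Its cells are known to occupy an adrenergic state, held by transcription factors such as HAND2 and GATA3, or a mesenchymal state, marked by factors such as PRRX1, SNAI2 and YAP1 and by matrix genes. Adrenergic cells typically make catecholamines through tyrosine hydroxylase (TH), DOPA decarboxylase (DDC) and dopamine beta-hydroxylase (DBH).

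Each value is a log2 expression level of a probe set, the group of probes that reads 1 gene. A gene was called above the limit where its level exceeded the 95th percentile of the 612 negative-control probe sets of the same array, which was 7.31 on untreated replicate 1 and 7.64 on untreated replicate 2. Of 17687 named genes, 7678 were above the limit on both arrays (43.4%), 631 on 1 array and 9378 on neither. Single arrays gave 8265 genes (46.7%) on replicate 1 and 7722 (43.7%) on replicate 2. The negative controls themselves had a long upper tail, with 16 of the 612 above the limit on both arrays and highest values of 12.13 and 12.78. Genes between the limit and that tail are therefore less firmly placed than the 1052 genes (5.95%) that exceeded every negative control on both arrays. Probes differ in how strongly they bind, so a rank orders signals and not numbers of transcripts.

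**Figure D1:**
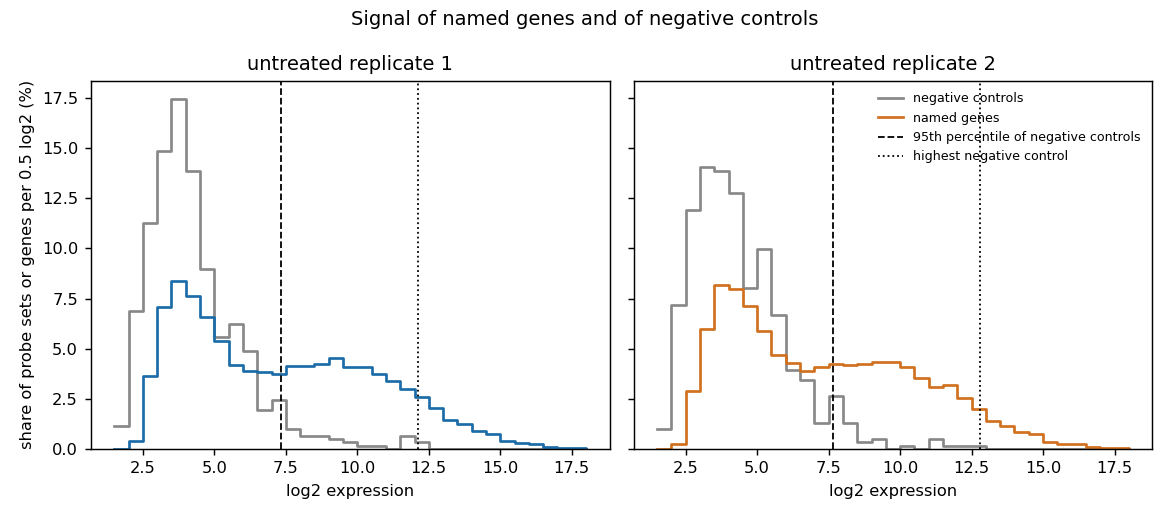
Share of the 612 negative-control probe sets (grey) and of the 17687 named genes (colour) in bins of log2 expression, 1 panel per untreated array. The dashed line is the 95th percentile of the negative controls (7.31 and 7.64), the dotted line their highest value (12.13 and 12.78), and the named genes have a second, broad shoulder to the right of the dashed line.

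The genes just above the mean of both limits were C15orf40, at 7.74 and 7.21, MACROD1, at 7.38 and 7.58, and EPB41L4B, at 7.50 and 7.46 (replicate 1 first, here and throughout). Just below it were BAALC, at 7.53 and 7.42, TPCN2, at 7.82 and 7.14, and ZNF710, at 7.36 and 7.59. Each of these 6 genes was above the limit on 1 array and below it on the other.

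The start of a gene is a place where the letters of the genome differ between widely used and tissue-restricted genes: the former often carry many CpG pairs, the latter more often a TATA box. To show this beside the levels, the 250 bases before the start of 7 genes are printed from RefSeq (GRCh38.p14), 5′ to 3′ on the gene's strand, with CpG pairs in capitals and a TATAAA motif lying 50 to 11 bases before the start in capitals. TUBA1B, which encodes an alpha-tubulin, had the highest signal of all named genes, and H2BC12 is a replication-dependent histone gene. CHRNA3 encodes a subunit of the ganglionic acetylcholine receptor, and PHOX2A an adrenergic transcription factor. DDC and DBH stand for a catecholamine enzyme above and below the limit, and GCG, the glucagon gene, for a signal of an unrelated tissue.
TUBA1B: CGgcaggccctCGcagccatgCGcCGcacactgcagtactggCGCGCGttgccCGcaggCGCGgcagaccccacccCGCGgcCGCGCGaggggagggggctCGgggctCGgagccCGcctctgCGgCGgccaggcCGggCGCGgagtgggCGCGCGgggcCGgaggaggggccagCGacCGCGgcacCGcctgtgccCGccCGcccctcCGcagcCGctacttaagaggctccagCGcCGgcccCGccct
H2BC12: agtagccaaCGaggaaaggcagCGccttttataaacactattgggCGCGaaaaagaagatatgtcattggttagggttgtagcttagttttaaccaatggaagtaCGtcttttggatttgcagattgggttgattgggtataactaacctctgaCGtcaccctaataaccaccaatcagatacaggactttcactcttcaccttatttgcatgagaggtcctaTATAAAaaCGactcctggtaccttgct
CHRNA3: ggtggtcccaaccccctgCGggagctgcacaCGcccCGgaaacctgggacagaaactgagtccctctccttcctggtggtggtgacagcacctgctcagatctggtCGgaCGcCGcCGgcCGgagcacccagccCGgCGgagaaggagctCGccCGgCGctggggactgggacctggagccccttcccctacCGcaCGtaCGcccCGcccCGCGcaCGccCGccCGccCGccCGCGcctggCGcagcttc
PHOX2A: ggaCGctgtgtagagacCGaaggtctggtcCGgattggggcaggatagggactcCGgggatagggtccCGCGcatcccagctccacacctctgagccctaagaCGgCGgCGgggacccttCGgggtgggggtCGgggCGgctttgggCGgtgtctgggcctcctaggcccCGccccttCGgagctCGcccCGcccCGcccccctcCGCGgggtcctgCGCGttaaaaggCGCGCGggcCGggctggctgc
DDC: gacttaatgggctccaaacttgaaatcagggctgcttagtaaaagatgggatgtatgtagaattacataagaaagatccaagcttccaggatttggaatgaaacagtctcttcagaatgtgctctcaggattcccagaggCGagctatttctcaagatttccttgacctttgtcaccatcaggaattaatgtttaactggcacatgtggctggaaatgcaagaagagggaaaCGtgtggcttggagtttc
DBH: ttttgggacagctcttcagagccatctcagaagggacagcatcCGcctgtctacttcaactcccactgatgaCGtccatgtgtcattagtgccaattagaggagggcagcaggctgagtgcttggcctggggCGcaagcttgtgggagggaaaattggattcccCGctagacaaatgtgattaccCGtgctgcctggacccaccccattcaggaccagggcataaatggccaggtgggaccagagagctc
GCG: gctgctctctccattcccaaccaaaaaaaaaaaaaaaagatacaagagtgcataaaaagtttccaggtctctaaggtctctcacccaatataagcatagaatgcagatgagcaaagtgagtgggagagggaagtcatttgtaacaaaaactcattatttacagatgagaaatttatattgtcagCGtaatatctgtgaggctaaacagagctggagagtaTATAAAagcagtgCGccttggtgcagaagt
The stretches lie at chr12:49131396-49131645, minus strand (TUBA1B), chr6:27146859-27147108, minus strand (H2BC12), chr15:78620997-78621246, minus strand (CHRNA3), chr11:72244177-72244426, minus strand (PHOX2A), chr7:50565406-50565655, minus strand (DDC), chr9:133636113-133636362, plus strand (DBH) and chr2:162152248-162152497, minus strand (GCG). They hold 38 CpG pairs in TUBA1B, 26 in CHRNA3, 26 in PHOX2A and 7 in H2BC12. DBH holds 5, DDC 2 and GCG 2. TATAAA starts 27 bases before the start in H2BC12 and 30 bases before it in GCG, and the other 5 stretches have no match in that part.

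Among named genes, the strongest signals came from the cytoskeleton, the ribosome, protein folding and glycolysis. TUBA1B stood at 17.90 and 17.87, the ribosomal protein gene RPL38 at 17.69 and 17.70, and ASPH, an aspartyl hydroxylase of the endoplasmic reticulum, at 17.33 and 17.56. EEF1A1, the elongation factor that brings transfer RNA to the ribosome, had 17.53 and 17.23. GAPDH, the glycolytic dehydrogenase, had 17.41 and 17.27, and the cyclophilin gene PPIA 17.37 and 17.09. Among the 25 highest genes were 11 cytosolic ribosomal protein genes, in order RPL38, RPS23, RPS21, RPL35, RPS10, RPS18, RPS15, RPS7, RPL34, RPS16 and RPL37A, with means from 17.69 down to 16.55. The rest included SSR2, a subunit of the translocon-associated complex (17.28 and 17.35), and ATP5PF, a subunit of ATP synthase (17.16 and 17.13). PPIB, a cyclophilin of the secretory pathway, had 16.75 and 16.82, and ANXA2, a calcium-dependent membrane-binding protein, 16.75 and 16.66. The histone genes H2AC14 (16.86 and 16.98) and H2BC12 (16.75 and 16.73) were also among them. Tubulin, histone and ribosomal protein genes have near-identical copies or pseudogenes, so their probe sets may share signal.

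The 25 highest genes also included GCG, HGF and MIR4485. GCG had 17.21 and 17.16, rank 9 by mean among the named genes. Probe sequences were not used here, so whether the probe sets of GCG, MIR4485, LCE1E, TYRP1 and PTPRC read only these genes was not checked, and their values below are signals of those probe sets. HGF, which encodes hepatocyte growth factor, a ligand made by mesenchymal cells, had 16.81 and 16.68. MIR4485, a microRNA gene, had 16.96 and 16.65. All 3 exceeded every negative control on both arrays. The neighbours of GCG in RefSeq gene order were DPP4, a cell-surface peptidase, at 5.32 and 5.39, below the limit, and FAP, a peptidase of activated fibroblasts, at 12.10 and 11.95. The mature product listed for MIR4485, hsa-miR-4485-3p, is printed with its seed (bases 2 to 8) in capitals; the array labels whole transcripts and does not tell a mature microRNA from longer RNA of the same letters.
hsa-miR-4485-3p: uAACGGCCgcgguacccuaa
Of 11 microRNA genes measured, 3 were above the limit (27.3%, beside 43.4% of all named genes). Besides MIR4485 these were MIR6809, at 9.21 and 9.23, and MIR4651, at 8.92 and 9.43.

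The order within the top of the list was not resolved by these arrays. Of the 24 gaps between neighbours among the 25 highest genes, 20 were smaller than the pooled SD of those genes between the arrays, 0.0997. Membership was steadier: 91 of the 100 highest genes of each array were shared (91% of each list), and 932 of the 1000 highest (93.2%). Among the 100 highest by mean, the median change in rank between the arrays was 6 places and the largest 43. Among 1000 genes around the middle of those above the limit it was 274.5 places.

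Whole gene families filled the upper range. Of 50 cytosolic ribosomal protein genes measured, 48 were above the limit, against 43.4% of all named genes, with a family median of 15.85 where the median of all named genes was 6.87 and 6.84 on the arrays. The other two were RPL10L (4.72 and 4.85) and RPL3L (6.71 and 7.28), copies used in testis and in muscle. All 18 translation factors measured were above the limit (median 14.58), as were all 20 chaperones (14.71) and all 23 actin and tubulin cytoskeleton genes (13.91). After EEF1A1, the highest translation factors were the start-site selection factor EIF1 (16.24 and 16.08) and the elongation factor subunit EEF1D (15.96 and 16.11). CALR, an endoplasmic reticulum chaperone, had 16.45 and 16.35, and HSP90AB1, a cytosolic one, 16.34 and 16.15. TMSB4X, which binds actin monomers, had 16.24 on both arrays.

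Genes of energy metabolism were also high. In glycolysis 17 of 18 genes were above the limit (94.4%, beside 43.4% of all named genes, median 13.56). They were led after GAPDH by the enolase gene ENO1 (16.31 and 16.20), LDHB (16.24 and 16.26) and LDHA (16.20 and 16.14). The exception was ENO2, the enolase of neurons, at 6.67 and 6.29. Of 74 genes for subunits of ATP synthase, NADH dehydrogenase and cytochrome oxidase, 65 were above the limit (median 12.44). Among the 9 below it were COX6A2 (6.79 and 6.43) and COX7A1 (4.60 and 5.38), both muscle forms of cytochrome oxidase subunits, and COX8C (6.08 and 5.84). Mitochondrial ribosomal proteins (71 of 74, median 10.83) and proteasome subunits (33 of 36, median 12.48) were likewise mostly above it. The proteasome genes below the limit were PSMA8 (4.06 and 3.29), a testis subunit, and PSMB11 (4.96 and 5.35), a thymus subunit, and the immunoproteasome gene PSMB10 was above it on 1 array (7.16 and 7.73).

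Cell cycle genes were high in signal. Of 23 proliferation genes 22 were above the limit on both arrays (95.7%, beside 43.4% of all named genes, median 12.01). AURKB, a mitotic kinase, was above it on 1 array (7.22 and 7.74). The mitotic kinase gene PLK1 had 14.40 and 14.19, the cyclin gene CCNA2 13.91 and 13.73, and MKI67, the antigen used to stain cycling cells, 13.69 and 13.78. TOP2A, a topoisomerase of dividing cells, had 13.38 and 13.49. In the histone family 51 of 74 genes were above the limit (68.9%), among them H4C3 (16.42 and 16.68), H1-5 (16.10 and 16.11) and H2BC18 (16.07 and 15.88). E2F factors, which activate or repress cell cycle genes, gave 5 of 8, with E2F4, a repressor of these genes in resting cells, at 11.91 and 11.62.

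**Figure D2:**
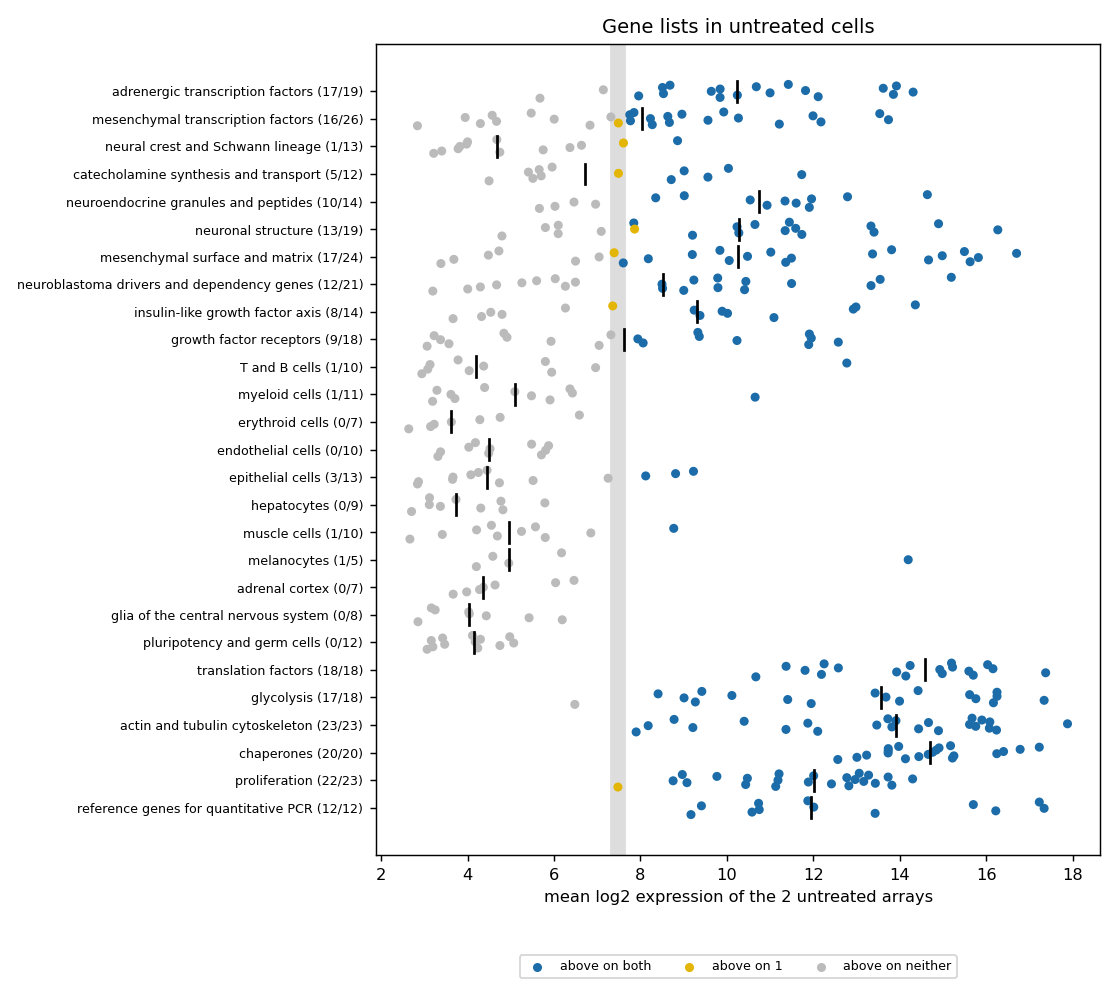
Mean log2 expression of each measured gene (point) in 27 gene lists, coloured by the number of arrays above the limit; the vertical tick is the list median, the grey band runs between both arrays' limits (7.31 and 7.64), and the counts in brackets are members above the limit on both arrays over members measured. Lists of other tissues sit left of the band but for a few genes such as PTPRC in the T and B cell list, and translation, cytoskeleton and chaperone genes all sit to its right.

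Adrenergic transcription factors were mostly above the limit. Of 19 measured, 17 were above the limit on both arrays (89.5%, beside 43.4% of all named genes, median 10.24). Of these, 9 were above the 99th percentile of the negative controls as well, which 17.5% of all named genes passed. MEIS2, a homeobox cofactor, had 14.19 and 14.43, the T-box repressor TBX2 a mean of 13.92, and EYA1, a transcriptional coactivator, 13.94 and 13.77. KLF7, a factor of sensory and sympathetic neurons, had 13.84 and 13.40, and MEIS1 12.29 and 11.94. The core factors were lower in signal. HAND2, a bHLH factor of sympathetic neurons, had 11.66 and 11.19, GATA2 11.20 and 10.80, ISL1 11.03 and 10.34, and GATA3 10.25 and 10.24. PHOX2A, at 8.12 and 7.80, lay near the limit and below the 99th percentile of the controls. HAND1 (7.12 and 7.17) and INSM1 (5.69 and 5.66), a zinc finger factor of neuroendocrine cells, were below the limit.

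Mesenchymal factors were above the limit in the same cultures. In RNA from whole cultures, fewer cells of a state and less RNA per cell cannot be told apart. Of 26 measured, 16 were above the limit on both arrays (61.5%, beside 43.4% of all named genes, median 8.04). At the 99th percentile 5 of the 26 passed, a share close to the 17.5% of all named genes. The ETS factor ELK4 had 13.76 and 13.73, ZEB1, a repressor of epithelial genes, 13.53 and 13.55, and the related neural crest factor SNAI2 12.18 on both arrays. ID1, an inhibitor of bHLH factors, had 11.97 and 12.02, TEAD1, which binds DNA for YAP1, 11.32 and 11.11, and TWIST1 10.42 and 10.11. PRRX1 (8.56 and 7.99) and YAP1 (7.71 and 7.80) were close to the limit. RUNX2 was above it on 1 array (7.84 and 7.14). WWTR1, the paralog of YAP1, had 6.85 and 6.82, and JUN, TEAD4 and IRF1 were also below it. The adrenergic and mesenchymal lists thus both had members well above and near the limit, and their medians come from different probe sets and were not compared.

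**Figure D3:**
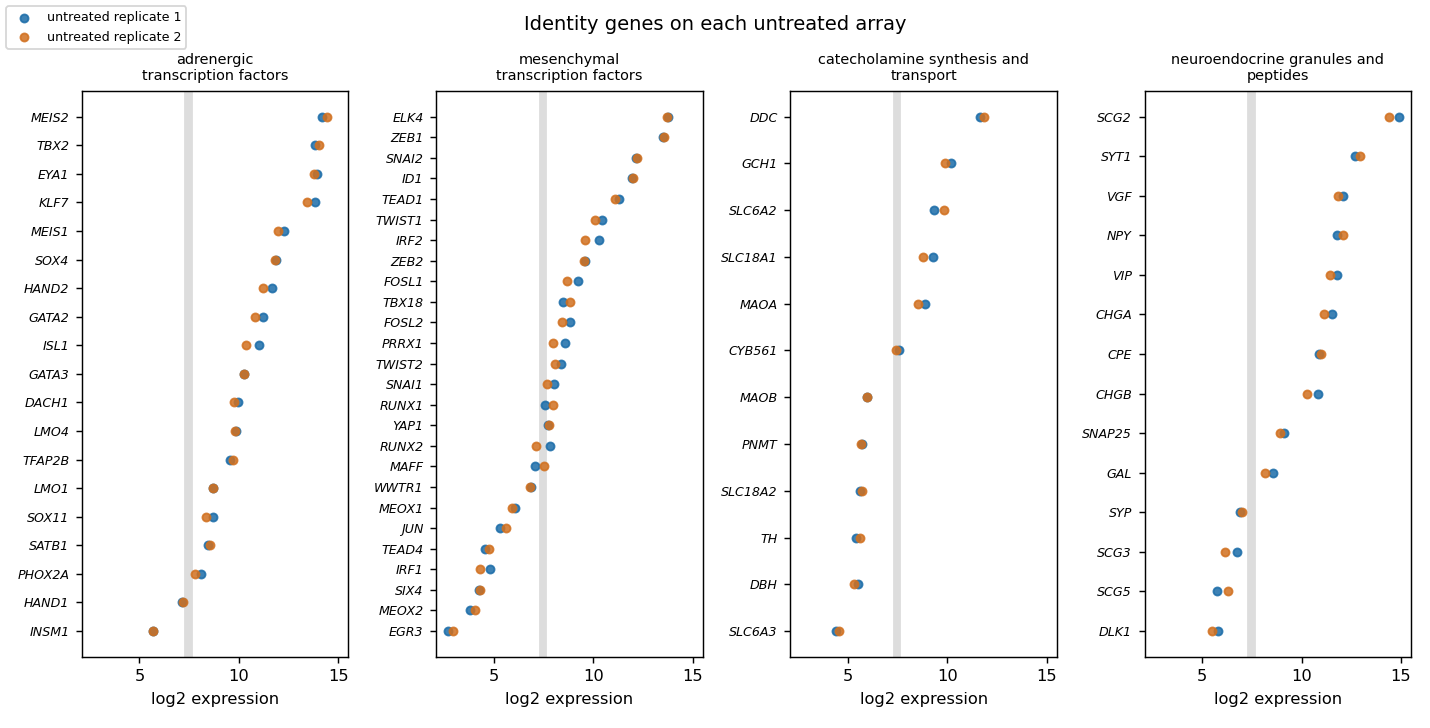
Log2 expression of each gene on untreated replicate 1 (blue) and 2 (orange) in 4 identity lists, ordered by mean; the grey band runs between both arrays' limits (7.31 and 7.64). DDC lies right of the band and TH and DBH left of it, while both adrenergic and mesenchymal factors reach means above 13.

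The mesenchymal surface and matrix list had 17 of 24 genes above the limit (70.8%, beside 43.4% of all named genes, median 10.27). Of these, 8 exceeded every negative control on both arrays, as 5.95% of all named genes did. After ANXA2, the highest were LGALS1, a galectin (15.76 and 15.88), ITGB1, the common integrin beta subunit (15.56 and 15.70), and the intermediate filament gene VIM (15.55 and 15.45). SPARC, a matrix protein, had 14.93 and 15.04, and ANXA1 14.66 and 14.67. CD44, the hyaluronan receptor, had 10.04 and 10.07, and FN1, fibronectin, 9.57 and 8.83. The list was not uniform: POSTN (3.85 and 3.52), COL4A1 (3.21 and 3.56), LOX (4.18 and 4.79) and TAGLN (4.45 and 5.00), genes of fibroblasts and contractile cells, were far below the limit. COL1A1 was above it on 1 array, at 7.42 and 7.36. Of 41 collagen chains 8 were above it (19.5%), led by the type VI chains COL6A2 (11.30 and 11.23) and COL6A1 (10.45 and 10.69).

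Catecholamine genes were split along the pathway. DDC, which makes dopamine, had 11.63 and 11.84, and GCH1, which makes the cofactor of TH, 10.20 and 9.88. The norepinephrine transporter gene SLC6A2 had 9.31 and 9.81, the vesicular transporter gene SLC18A1 9.26 and 8.77, and the degrading enzyme gene MAOA 8.90 and 8.53. CYB561, a cytochrome of secretory granules, was above the limit on 1 array (7.59 and 7.39). TH, the rate-limiting enzyme, had 5.41 and 5.61 and DBH, which makes norepinephrine, 5.52 and 5.30, both below the limit on both arrays. PNMT (5.73 and 5.68) and the second vesicular transporter gene SLC18A2 (5.62 and 5.70) were below it too. Together 5 of the 12 genes measured were above the limit (41.7%), near the 43.4% of all named genes. Of these 5 genes, DDC alone exceeded the 99th percentile of the controls, which 17.5% of all named genes passed.

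Granule and neuronal genes were mostly above the limit. In the granule and peptide list 10 of 14 genes were above the limit (71.4%, beside 43.4% of all named genes, median 10.74). Of these, 7 stayed so at the 99th percentile, which 17.5% of all named genes passed. SCG2, a secretogranin, had 14.89 and 14.39, the vesicle calcium sensor gene SYT1 12.67 and 12.92, and the peptide genes VGF (12.08 and 11.84), NPY (11.76 and 12.06) and VIP (11.78 and 11.42) followed. CHGA, chromogranin A, had 11.54 and 11.15. SYP (6.90 and 7.02), SCG3 (6.78 and 6.15), SCG5 (5.73 and 6.31) and DLK1 (5.81 and 5.52) were below the limit. In the neuronal structure list 13 of 19 were above the limit (68.4%, median 10.28), and 8 stayed so at the 99th percentile. UCHL1, a ubiquitin hydrolase abundant in neurons, had 16.23 and 16.31, the microtubule-binding gene MAP1B 14.95 and 14.85, and the RNA-binding gene ELAVL4 13.70 and 13.12. NEFM, a neurofilament, had 13.34 and 13.33, and STMN2, a tubulin regulator of axons, 11.82 and 11.65. RBFOX3, a marker of mature neurons (5.08 and 4.51), ELAVL3 (5.99 and 5.61), NEFH (6.74 and 5.45) and DCX (6.79 and 5.41) were below the limit.

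Schwann lineage genes were nearly all below the limit. In the neural crest and Schwann list 1 of 13 genes was above it on both arrays (7.69%, beside 43.4% of all named genes). That gene was SOX9, at 9.22 and 8.50, and EDNRB was above the limit on 1 array, at 7.69 and 7.52. SOX10, the factor that defines glial derivatives of the neural crest, had 6.52 and 6.76. ERBB3 (3.83 and 3.73), CDH19 (3.53 and 2.91) and S100B (3.55 and 4.10) were low as well.

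In each transmitter receptor and ion channel family searched, a smaller share of genes was above the limit than the 43.4% of all named genes. The shares ran from 0% for GABA-A receptor subunits to 28.6% for nicotinic receptor subunits. Of 14 nicotinic receptor subunits 4 were above the limit, and 3 of them, CHRNA3 (15.18 and 14.92), CHRNA5 (12.12 and 12.22) and CHRNB4 (11.60 and 11.89), encode the receptor of autonomic ganglia. These 3 follow each other in RefSeq gene order, and the next named genes were the proteasome gene PSMA4 (13.34 and 12.84) on one side and LOC646938 (6.70 and 6.26), below the limit, on the other. The fourth was CHRNB2, at 8.07 and 8.57. No GABA-A receptor subunit of 15 was above the limit. Ionotropic glutamate receptor names gave 4 of 18, led by GRIK2 (10.47 and 10.71), and muscarinic, adrenergic, dopamine and serotonin receptors 2 of 35, HTR2B (11.68 and 12.05) and CHRM3 (8.34 and 7.87). The sodium channel gene SCN9A (11.80 and 11.53) was the 1 member of 17 sodium and calcium channel pore genes above it. Of 63 potassium channel genes 6 were above it, led by KCNH2 (12.65 and 12.64) and KCNJ8 (11.43 and 11.35).

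Among growth factors and their receptors, several genes of the insulin-like growth factor axis had high signals. IGF2 had 14.41 and 14.31, its receptor gene IGF1R 13.04 and 12.81 and the binding protein gene IGFBP2 12.92 and 13.05. IGF1, the other ligand, was below the limit (6.19 and 6.34), as were INSR (4.31 and 4.77) and IRS1 (3.61 and 3.72). In all, 8 of 14 genes of this axis were above it (57.1%, beside 43.4% of all named genes). At the 99th percentile 3 of the 14 passed, beside 17.5% of all named genes. The neurite growth factors PTN (16.10 and 16.02) and MDK (14.99 on replicate 2) were the 2 of 7 neurotrophic ligands above the limit. SEMA3A, an axon repellent, had 14.80 and 14.33, VEGFA 11.77 on both arrays, and BMP4 11.72 and 10.81, whereas 0 of 21 fibroblast growth factor genes passed and WNT5A (7.54 and 7.20) was above it on 1 array, alone among 18 WNT genes. Of 18 receptor kinase genes 9 were above the limit (50%, near the 43.4% of all named genes), and 4 passed at the 99th percentile. RET, the receptor of the GDNF family, had 12.46 and 12.70, PDGFRA 11.97 and 11.94, the collagen receptor DDR2 11.98 and 11.84 and FLT1 11.76 and 12.03. MET, the receptor of HGF, was below the limit at 3.50 and 3.64, as were KDR (3.41 and 3.34), KIT (2.95 and 3.50) and FGFR3 (3.25 and 2.88). Of 37 chemokine genes 3 were above it, CCL2 (10.98 and 10.64), CXCL12 (9.97 and 10.04) and CXCL8 (7.72 and 7.87), and of 37 interleukins 2, IL7 (8.19 and 8.28) and IL34 (8.04 and 8.18).

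Of 21 neuroblastoma driver and dependency genes measured, 12 were above the limit (57.1%, beside 43.4% of all named genes, median 8.51). At the 99th percentile 4 of the 21 passed, beside 17.5% of all named genes. Another 4 genes of the list had no named probe set. MYCN, amplified in aggressive tumours, was below the limit (4.17 and 3.84), and so were ALK (5.38 and 5.13), TERT (5.26 and 5.94) and LIN28B (4.63 and 4.71). MYC had 8.44 and 8.55, above the limit and below the 99th percentile of the controls. CDK4 had 15.12 and 15.26, its cyclin gene CCND1 13.70 and 13.39, and PTPN11, a phosphatase of RAS signalling, 13.40 and 13.27. ARID1A had 11.50 on both arrays, CDK6 10.48 and 10.40, CDKN2A 10.21 and 10.61, ATRX 9.92 and 9.66, MDM2 9.85 and 9.74, BARD1 9.10 and 8.91, NF1 9.01 and 9.46, and HRAS 8.46 and 8.57. CDKN1A, an inhibitor of the cell cycle (6.16 and 6.37), CDKN2B (mean 6.03) and ARID1B (6.65 and 6.35) were below the limit. The neurotrophin receptor genes NTRK2 (2.69 and 3.71) and NTRK3 (4.17 and 4.43) were below it too.

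Outside the zinc finger genes, transcription factor families had fewer members above the limit than the average gene. Of 482 zinc finger genes named ZNF 237 were above it (49.2%), and of the 189 genes of the other families searched 58 (30.7%), beside 43.4% of all named genes. Those 189 leave out the HOX genes, and with them the count was 59 of 212 (27.8%). Among the ZNF genes and the other families searched, the 10 highest were MEIS2, TBX2, KLF7, NFIB (13.67 and 13.42), ZNF146, FOXK2, ZNF3, ZNF121, ID2 and ZNF480. Factors outside these families, such as ELK4 and ZEB1, did not enter this order. GATA4, a factor of heart and gonad, had 10.67 and 10.70, TBX3 11.84 and 12.04, TBX20, a cardiac T-box factor, 10.46 and 10.50, and FOXF1, a factor of visceral mesenchyme, 8.99 and 9.27. LHX8 had 10.10 and 10.32. SOX4 (11.85 and 11.79) led the 5 of 19 SOX genes above the limit, and 0 of 8 PAX genes passed. Of 23 HOX genes measured in the 4 clusters 1 passed, HOXD8, at 9.63 and 9.33, below the 99th percentile of the controls on both arrays. Its measured neighbours HOXD9 (5.51 and 5.51) and HOXD4 (6.09 and 6.18) were below the limit. Kruppel-like factors gave 6 of 16, forkhead factors 9 of 41 (FOXK2 at 12.90 and 13.02, FOXM1 of dividing cells at 12.07 and 12.45) and nuclear receptors 6 of 17, with NR2F1 at 11.46 and 11.14. Most of the widely used MEF2, SRF and NFI factors passed, 7 of 8, and 2 of 10 HES and HEY genes did, with the Notch target HEY1 at 11.52 and 11.41.

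Most markers of other cell types were below the limit, which 43.4% of all named genes passed on both arrays. None of the erythroid (7), endothelial (10), hepatocyte (9), adrenal cortex (7), central glia (8) or pluripotency and germ cell (12) genes measured was above it, and the highest mean among these lists was 6.59, that of the erythroid factor GATA1. Of 10 T and B cell genes 1 was above it: PTPRC, the CD45 phosphatase of white blood cells, at 12.75 and 12.80, while CD3D (3.04 and 3.22), CD3E (5.76 and 5.85) and MS4A1 (3.73 and 3.83) were not. Of 5 melanocyte genes 1 was above it: TYRP1, an enzyme of pigment granules, at 14.21 and 14.18, with TYR (3.93 and 4.48), PMEL (5.21 and 4.70) and MLANA (4.20 and 4.97) below. Both signals exceeded every negative control, and what the 2 probe sets read was not checked. CD68, a lysosomal protein (10.58 and 10.73), was the 1 of 11 myeloid genes, and ACTA1, skeletal actin (9.10 and 8.45), the 1 of 10 muscle genes. Of 13 epithelial genes 3 passed, KRT8 (9.11 and 9.35), CLDN4 (8.79 and 8.83) and KRT18 (8.45 and 7.79), and EPCAM (4.08 and 4.07) and CDH1 (2.85 and 2.83) did not. Below the limit, CD79A (mean 6.96), TNNI3 (6.85) and CLDN7 (7.25) still exceeded the 90th percentile of the controls on both arrays. They belong to the T and B cell, muscle and epithelial lists. Among cadherins, CDH2 of neural and mesenchymal cells had 14.24 and 14.09 and the mesenchymal CDH11 12.28 and 12.38. Of 42 keratins 3 passed, of 24 claudins 3, of 13 Eph receptors 3 and of 15 HLA genes 4.

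Large tissue-restricted families marked the silent end. None of 348 olfactory receptor genes was above the limit on either array (median 3.59, highest mean 6.15), nor were any of 24 taste receptors, 26 beta-defensins and 13 interferon alpha genes. Keratin-associated proteins gave 5 of 85, led by KRTAP5-1 (9.81 and 10.23), and all 5 had the higher value on replicate 2. Late cornified envelope genes, of skin, gave 3 of 18. LCE1E had 13.74 and 14.05 and LCE1C 10.70 and 10.63, but LCE1D (4.66 and 5.56) and LCE1F (4.09 and 3.64), which flank LCE1E, were below the limit. MAGE genes, several of them silent in most adult tissues outside the testis, gave 13 of 27 (48.1%), near the 43.4% of all named genes, with MAGEA6 (12.71 and 12.65), MAGEA2 (11.98 and 11.73) and MAGEC2 (11.64 and 11.62) the highest. MAGEA2, MAGEA3 and MAGEA6 are near-identical copies whose probe sets may share signal.

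By RefSeq type, 44.1% of 17249 protein-coding genes, 31.6% of 117 transcribed pseudogenes and 12.1% of 306 long non-coding genes were above the limit. The share also varied with the length of the gene in the genome. It was 22.0% among the shortest 10th of genes, rose to 54.6% in the seventh, with spans of 37.3 to 54.3 kb, and was 43.2% among the longest. Calls of neighbouring genes went together: where the preceding named gene was above it the next was so in 51.0% of cases, and otherwise in 37.5%. Without the olfactory, keratin, defensin, protocadherin, HOX, histone and other clustered families the shares were 50.9% and 39.7%.

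Promoter letters, which played no part in the call, are described by class without a test. A RefSeq window of 300 bases, 250 before and 50 after the start, was found for 14250 of the named genes (80.6%). The median ratio of observed to expected CpG pairs was 0.857 in the 6476 genes above the limit on both arrays, 0.843 in the 514 above it on 1 and 0.562 in the 7260 above it on neither. At least 0.6 was reached by 86.8%, 85.6% and 47.9%. Across deciles of signal the median ratio climbed from 0.311 to 0.842 by the sixth decile and then levelled, at 0.873 in the highest. Olfactory receptor promoters had a median ratio of 0.122 and those of cytosolic ribosomal proteins 0.911. In this 300-base window the ratio was 0.967 for TUBA1B, 0.842 for PHOX2A and 0.796 for CHRNA3, against 0.207 for DDC and 0.168 for GCG. DDC was thus above the limit with few CpG pairs in this window, the first listed for it in RefSeq. Whether its transcripts start there in these cells was not checked.

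The motif TATAAA was searched on the gene's strand at 50 to 11 bases before the start, where 3.78% of all 14250 windows hold it. Its reverse complement TTTATA, which shares 4 letters with an overlapping match, was held there by 0.765%. The share with TATAAA was 5.88% among genes above the limit on neither array and 1.59% among those above it on both. It was 8.63% in the lowest decile of signal, 0.982% in the eighth and 2.67% in the highest. Among the 83 of the 100 highest genes with a window 7 held it (8.43%), and without histone genes 4 of 77 (5.19%). Of 46 histone genes above the limit 28 held it (60.9%), and so did 53.5% of the 71 keratin-associated protein windows. Over all 69 histone windows, whatever their signal, 37 held it (53.6%), so the motif was about as frequent in both families, of which 51 of 74 and 5 of 85 genes were above the limit.

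**Figure D4:**
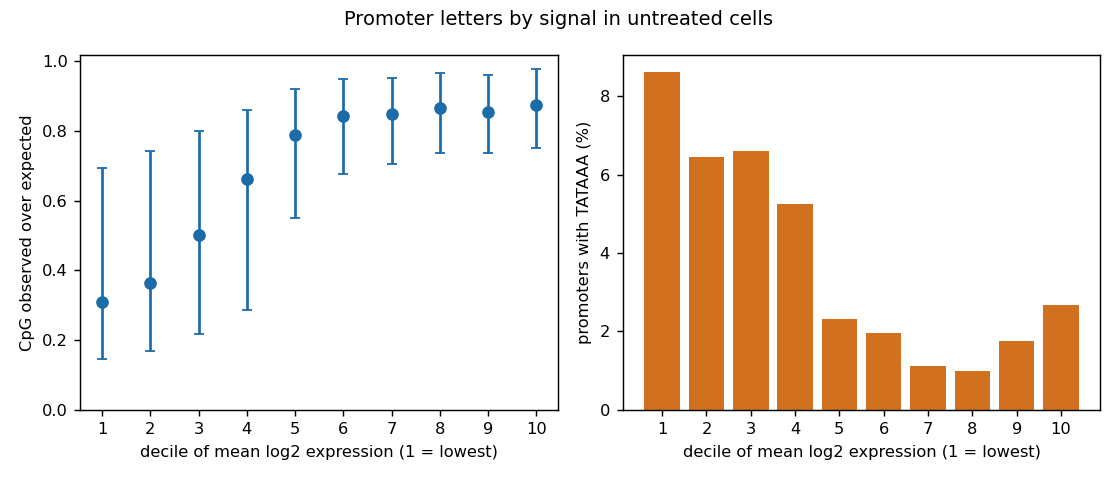
Left, ratio of observed to expected CpG pairs in 300-base promoter windows by decile of mean log2 expression (points, medians; bars, interquartile range; 1425 genes each). Right, share of windows with TATAAA at 50 to 11 bases before the start, which falls from 8.63% in the lowest decile to 0.982% in the eighth and is 2.67% in the highest.

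The untreated arrays agreed closely at high signal and less so at low signal. Among genes above the limit on both arrays the median absolute difference was 0.197 on the log2 scale and the pooled SD 0.215, and 95% of the genes lay within 0.610. Among genes above it on neither array the median absolute difference was 0.277. By decile of signal the pooled SD was 0.279 in the lowest, largest in the third at 0.342, 0.279 in the sixth and 0.170 in the tenth. Across genes above the limit Pearson's r of the arrays was 0.988 and Spearman's rho 0.985 (n = 7678 genes, which are not independent replicates and share the arrays' normalization).

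**Figure D5:**
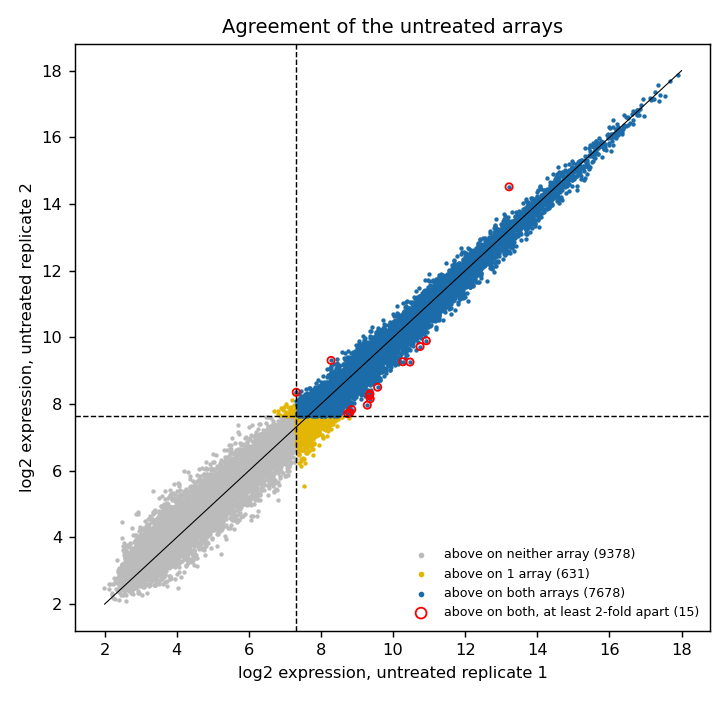
Log2 expression of all 17687 named genes on untreated replicate 1 (x axis) and replicate 2 (y axis), coloured by the number of arrays above the limit (dashed lines, 7.31 and 7.64); the solid line marks equal values. Red circles mark the 15 genes above the limit on both arrays that differ at least 2-fold.

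The arrays differed by at least 2-fold in 15 of the 7678 genes (0.195%), 3 of them higher on replicate 2 (0.0391%) and 12 lower (0.156%). Over all named genes 364 were that far apart (2.06%), and 50.8% were higher on replicate 2 at any size. The 10 furthest apart were PI4KAP2, a pseudogene of a lipid kinase (9.28 and 7.97), ROMO1, a small mitochondrial membrane protein (13.22 and 14.52), the ciliary gene IFT57 (10.47 and 9.26), ADO (9.37 and 8.16), HLA-C (9.35 and 8.25), RPEL1 (9.57 and 8.51), RBM4B (8.80 and 7.74), UQCC6 (9.36 and 8.30), DHRS7B (7.32 and 8.35) and SPRYD4 (8.28 and 9.31). Leaving out either array leaves a single value and no difference to count.

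The direction of the differences was not even across genes. Replicate 2 had the higher value in 42.7% of genes above the limit on both arrays and in 59.5% of genes above it on neither. The split of the genes above the limit on 1 array, 587 on replicate 1 and 44 on replicate 2, goes with the lower limit of replicate 1 and is not read as a difference. Among genes above it on both, replicate 2 was higher in 57.2% of the shortest 10th by span (up to 5.77 kb) and in 34.8% of the sixth 10th (33.2 to 45.4 kb). Among the gene groups, of 237 zinc finger genes named ZNF above the limit, 160 were lower and 77 higher on replicate 2, with a median difference of -0.16. Of 17 adrenergic factors 13 were lower (median -0.16). Of 65 genes of ATP synthase, NADH dehydrogenase and cytochrome oxidase, 41 were higher (median 0.084), and of 9 growth factor receptors 7 (median 0.24). These groups were chosen after their values were seen, and in all genes above the limit 42.7% were higher on replicate 2. RNA quality measures of these arrays are not given in the sources used here, and their part in these differences was not tested.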

How the data were processed

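Expression was measured on Affymetrix whole-transcript arrays. The table deposited by the authors holds log2 expression per probe set, a scale judged here from its values. As tools the submitters' processing notes list Transcriptome Analysis Console (version 4.0.1.36) and RMA. That method corrects background, normalizes arrays to each other and summarizes probes, so the 2 columns have like distributions by construction. No genome build for the probe sets was found in the labels. With 2 arrays the precision is limited by their number.

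Of 24351 probe sets, 2903 controls were left out. Of the other 21448, 17709 had 1 symbol in the platform annotation, 0 had several and 3739 are unnamed here. Where a symbol had more than 1 probe set (20 symbols), the set of highest mean stood for it, which gave 17687 genes, all found in the RefSeq table of GRCh38.p14. Promoter windows and the microRNA came from RefSeq, with the first window listed for a gene.

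The 27 gene lists hold 435 genes, 390 of them measured, and 54 families were taken by symbol, 21 of them added after the values were seen. The members, lists and limit were chosen with earlier results of these data known. The rule for named genes took the 25 highest genes, all drivers and the cell type markers. It also took up to 6 members above and 4 below the limit per list or family. It further took the 10 genes furthest apart, 3 genes on each side of the limit and the 10 highest genes of the transcription factor families searched. Others, such as IGF1, FOXF1, TOP2A, the genes next to GCG, LCE1E and HOXD8, and some isoforms below the limit in housekeeping families, were chosen after their values were seen. Alternatives were other limits, 1 array alone, median centring, other fold thresholds and another motif window. The counting functions were tested on simulated data. Computations used Python 3.11.15, pandas 2.3.3 and numpy 2.4.6.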

Additional observations from a re-analysis of the deposited data

Results flagged for a closer look

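Signal outside the named genes was marked for a closer look because no count in the report uses it. Of the 3739 probe sets unnamed here, 1057 were above the limit on both untreated arrays (28.3%). The highest of them had 18.02 on replicate 1 and 17.80 on replicate 2, and 25 had a mean above that of the 25th named gene. The ranks given for named genes are therefore ranks among named genes.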

How the results depend on the processing

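The number of arrays and the tail of the negative controls set the limits of this description. Against 7678 genes at the 95th percentile, the limit at the 99th percentile left 3091 genes and the highest negative control 1052, and the listed genes above the limit went from 223 to 141 and 95. Genes close to the limit, such as PHOX2A, PRRX1 and YAP1, are thus less secure than those above 13. The 90th percentile gave 9094 genes. Without 1 array the counts were 7722 to 8265 genes and 224 to 229 listed genes. Genes at least 2-fold apart numbered 15, against 40 when 1 array above the limit sufficed, 9 after median centring, 442 at 1.5-fold and 0 at 3-fold. The CpG ratio of genes above minus not above the limit was 0.251, and 0.130 at the 99th percentile or 0.113 for the 1000 highest genes against the rest. The share of TATAAA among the 100 highest genes was 8.43%, and 5.19% without histone genes, an alternative chosen after seeing the data. In all, 22 of 33 alternative values of the main results lay within 1.5 times the reported one. No paired analysis was possible because the report covers 1 group and compares no groups.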
